A study of Mus musculus with 280 samples.

Results

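The net change in the transcriptome over preimplantation development was taken as the difference between 14 blastocysts and 41 2-cell embryos sired by males on control diet. These 55 embryos were chosen by stage and by the diet of the father, and they belong to a series of 280 single embryos, 139 of which had control sires. The 42 control embryos at the 4-cell stage and the 38 control morulae gave the path between the end points. All embryos were of the inbred mouse strain FVB and were made by in vitro fertilization. The eggs came from females kept on control diet and the sperm from males on either control or low protein diet. The embryos grew in KSOM, a simple medium for preimplantation culture, and each was lysed whole at its stage and made into its own RNA-seq library. The series sets embryos of control and low protein sires side by side, and the question here is what the control embryo loses and gains between its first division and the formation of the blastocyst. A further 39 2-cell embryos and 22 blastocysts of low protein sires served as a second set.

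A mouse embryo starts with RNA stored in the egg. At the 2-cell stage this store is being destroyed while the embryonic genome is switched on, with a burst of genes linked to the retrovirus-like element MERVL. By the blastocyst stage an outer epithelium, the trophectoderm, pumps fluid into a cavity and encloses the inner cell mass, which gives rise to the fetus and to the primitive endoderm.

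Values are TPM, transcript abundances corrected for length and scaled to a fixed total per embryo, so sequencing depth is unknown and each level is a share of the embryo's RNA. Fewer cells of a type and less RNA per cell cannot be told apart in whole embryos. The 2-cell embryos had 6339 to 10160 genes at 1 TPM or more (median 9370) and the blastocysts 8059 to 9124 (median 8501). The ribosomal RNA precursor Rn45s took 0.0435% to 25.4% of the total in 2-cell embryos and 1.81% to 3.89% in blastocysts. The 41 2-cell embryos came from 8 sires on 6 plates, whereas the blastocysts came from 2 sires, 11 embryos of one on plate 2 and 3 embryos of the other on plate 3. On these plates the 2-cell embryos had other sires, and within a sire the stages lay on different plates. The labels do not say whether embryos of a sire came from separate fertilizations, so p-values measure the spread between embryos.

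Most markers of the blastocyst were present, and those of the egg were at or near 0 in most blastocysts. Cdx2, which specifies trophectoderm, lay at 53.9 to 155 TPM in blastocysts (median 121.5) and at 0 to 6.20 TPM in 2-cell embryos. Nanog, a factor of the inner cell mass, lay at 227 to 686 TPM in blastocysts and at 0 to 34.4 TPM in 2-cell embryos. Neither pair of ranges overlapped. Other lineage markers did not separate the stages in this way: Gata4 had a median of 27.2 TPM in 2-cell embryos and 0.995 TPM in blastocysts, Pou5f1 had 726 and 394 TPM, Esrrb had 1.07 and 1.31 TPM, and Tfap2c, at 36.1 and 76.1 TPM, had overlapping ranges. Zscan4d and Zscan4c were at 0 in all 14 blastocysts, and the median of each of the 5 oocyte markers in blastocysts was 2.74 TPM or less. Of 6 markers of cumulus cells, which surround the egg, 0 are among the genes analysed here. Of 4 sperm markers Prm2 is analysed, with 0 TPM in every blastocyst.

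A pair of blastocysts stood apart from the other 12. Blastocyst 10 held 883 TPM of the oocyte transcript Btg4, against 0 to 3.60 TPM in the other 13, and 714 TPM of Omt2b, against 0 to 5.10 TPM. It had the highest blastocyst level of 17 of 28 oocyte transcripts that fell, while its Krt8 level of 4466 TPM lay within the range of the others. Over 427 transcripts that were abundant in 2-cell embryos and then fell by 5 or more on the log2 scale, its median level was 1.78% of the 2-cell median, and the other blastocysts had 0% to 0.1%. Blastocyst 11 had the lowest level of 22 of 46 trophectoderm, keratin and actin transcripts that rose, among them Krt8 at 1349 TPM against 4064 to 9904 TPM in the other 13. Without both embryos 2821 genes rose and 5253 fell, close to the counts with them. The fall of Btg4 was 12.77 on the log2 scale without them and 12.2 with them, and the rise of Krt8 was 10.78 and 10.59. The 2-cell embryos were uneven too. Embryo 28, on plate 4, had the fewest genes at 1 TPM or more (6339), the highest Omt2b (101891 TPM) and the lowest Btg4 (2196 TPM). Embryos 19, 20 and 21, the 2-cell embryos of plate 3, had summed cytosolic ribosomal protein levels of 33500, 26755 and 24604 TPM, against a median of 9871 TPM. Fits on plate 3 alone compare the blastocysts with these embryos.

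Between the 2-cell stage and the blastocyst most of the measured transcriptome changed, and more genes fell than rose. Of 11054 genes tested, 8063 (72.9%) passed an adjusted p of 0.05 (limma, Benjamini-Hochberg) with a log2 fold change of at least 1 in size, and 8952 (81%) passed the adjusted p at any size. Of these, 2860 rose (25.9% of the genes tested) and 5203 fell (47.1%). Fold changes are on the scale of log2(TPM + 1), which understates the change of low transcripts. They are adjusted for plate, so they can differ from the plain levels given beside them. Changes of 3 or more on this scale numbered 936 rises and 2274 falls, and changes of 5 or more numbered 205 and 683. The ranges of the 2 stages did not overlap for 2293 genes (20.7%), of which 931 (8.42%) were higher in every blastocyst and 1362 (12.3%) were lower.

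The balance of rises and falls depended on the scaling. The median log2 fold change over all genes was -0.80 as deposited, and 35.5% of the called genes had risen. After quantile normalization, which gives all embryos the same distribution, the median was 0.07. Of the 73.6% of genes then called, 4131 (37.4% of those tested) were higher in blastocysts and 4008 (36.3%) lower, so that 50.8% of the calls were rises. Each list of genes below is therefore read beside the median of -0.80 and the background of 25.9% rises and 47.1% falls.

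On the scale of log2(TPM + 1), most genes had covered most of their net change by the 4-cell stage. On this scale a rise from near 0 TPM counts early. Cldn4 was past 50% at the 4-cell stage with a mean of 246 TPM, against 1611 TPM in blastocysts. Among genes that rose, 1903 of 2860 (66.5%) had reached at least 50% of their net change in the 4-cell mean, a further 553 (19.3%) did so in the morula and 404 (14.1%) in the blastocyst. Among genes that fell and whose plain means differed in the same direction, 3372 of 5194 (64.9%) had done so by the 4-cell stage. The median gene that rose had covered 79.4% of its net change at the 4-cell stage and 88.5% in the morula, and the median gene that fell 72.7% and 96%. The path was not always one way. Of the genes that rose, 1500 (52.4%) had their highest mean in the blastocyst, 773 (27%) at the 4-cell stage and 587 (20.5%) in the morula.

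**Figure D1:**
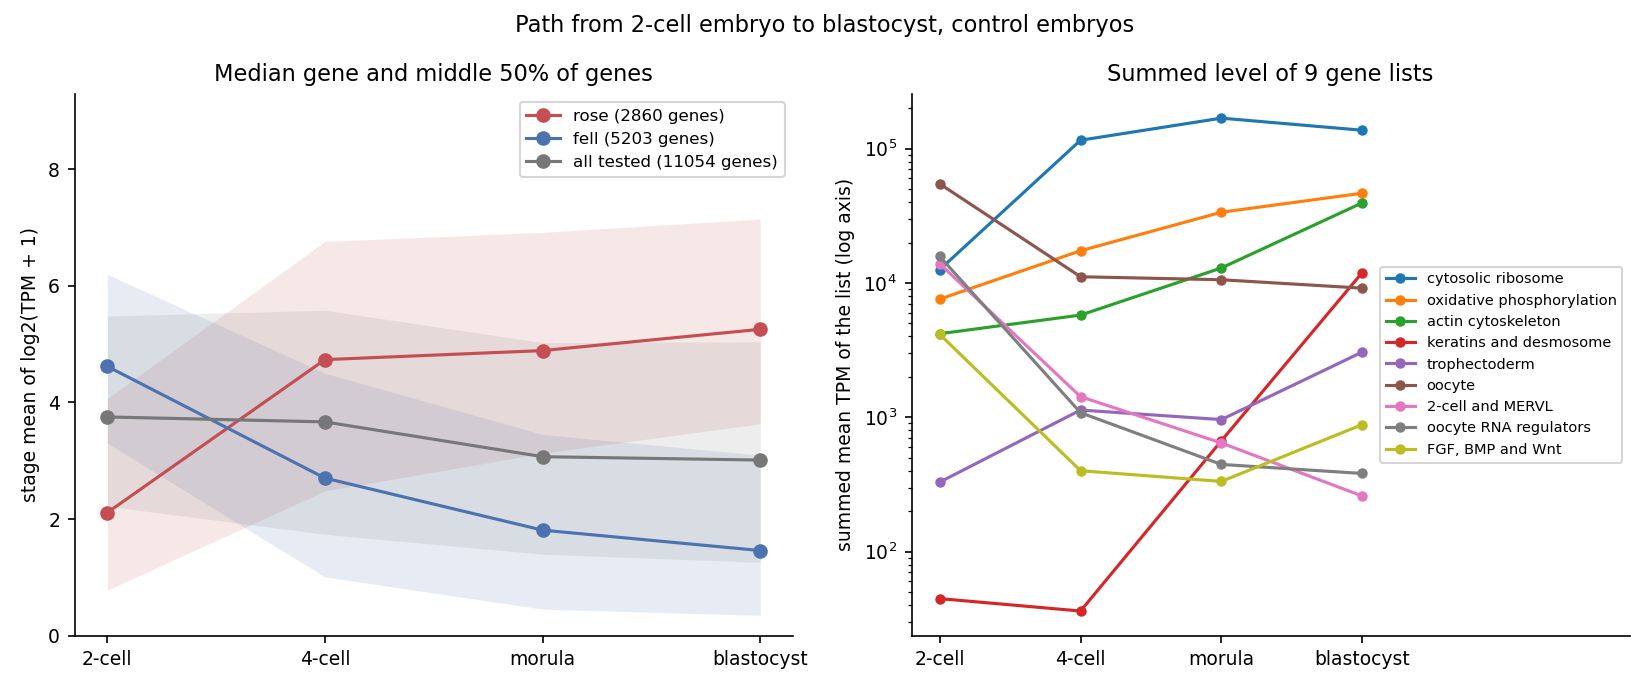
Left, the stage mean of log2(TPM + 1) at 4 stages for the 2860 genes that rose, the 5203 that fell and all 11054 tested, with the line at the median gene and the band over the middle 50% of genes. Right, the summed mean TPM of 9 gene lists on a log axis. The median gene that rose went from 2.11 to 4.74 between the 2-cell and 4-cell stages and ended at 5.26, and the keratin and desmosome list went from 36.2 TPM at the 4-cell stage to 11956 TPM in blastocysts.

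The most abundant transcripts were exchanged almost completely. Ranks and shares in this paragraph leave out the ribosomal RNA precursor Rn45s, which had a higher mean than any gene listed. Of the 100 genes with the highest mean in 2-cell embryos, 10 were among the 100 highest in blastocysts. In 2-cell embryos the highest 10 were Omt2b, Ccdc82, Zbed3, Tcl1, Btg4, Spin1, Dppa3, Mphosph6, E330034G19Rik and Gm1821. In blastocysts they were Crxos, Ftl1, Mt1, Hspa8, Actg1, Dppa5a, Actb, Gm1821, Eef1a1 and Hsp90aa1, which include a ferritin chain, a metallothionein, chaperones, actins and a translation elongation factor. These were picked by rank of the measured means. The 100 highest genes took 34.9% of the total without Rn45s in 2-cell embryos, 26.7% at the 4-cell stage, 35.6% in morulae and 40.2% in blastocysts. The median correlation of log2 values between embryos of a stage was 0.828 at the 2-cell stage and 0.935 in blastocysts, and between a 2-cell embryo and a blastocyst it was 0.269, over genes that are not independent.

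The largest falls were mostly of transcripts known from the growing egg. Omt2b, an oocyte maturation gene on chromosome 9, lay at 8796 to 101891 TPM in 2-cell embryos (median 19649) and at 0 to 714 TPM in blastocysts (median 0). It fell by 12.83 ± 0.52 (SE) on the log2 scale (limma adjusted p = 4.82e-50), and the ranges did not overlap. Btg4, an adaptor that brings the deadenylase complex to maternal messages, went from 2196 to 17489 TPM in 2-cell embryos (median 11269) to a median of 0 in blastocysts, a fall of 12.2 ± 0.43 (adjusted p = 2.65e-56). Apart from blastocyst 10 it was close to gone in every blastocyst. Tcl1b1, Tcl1b2, Gm21312, Omt2a, the homeobox gene Obox5, E330034G19Rik, Gm1965, Zbed3, the oocyte-secreted protein gene Oosp3 and Bcl2l10, a survival factor of the Bcl-2 family, completed the 12 largest falls. Their log2 changes ran from -12.25 for Tcl1b1 to -11.27 for Bcl2l10, and none had overlapping ranges. Omt2a and Omt2b, the Tcl1b genes and Gm21312 have near copies, so reads may be split or shared among them.

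The largest rises were of metabolic and epithelial genes. Fabp3, a carrier of fatty acids on chromosome 4, was at 0 to 35.3 TPM in 2-cell embryos (median 0) and at 2302 to 11891 TPM in blastocysts (median 7696). It rose by 12.28 ± 0.48 on the log2 scale (adjusted p = 6.83e-52), by way of means of 51.7 TPM at the 4-cell stage and 629 TPM in morulae. Krt8, a keratin of simple epithelia, was at 0 to 43.2 TPM in 2-cell embryos and at 1349 to 9904 TPM in blastocysts, a rise of 10.59 ± 0.56 (adjusted p = 4.65e-38). The ranges of both genes were far apart. Ly6a, a surface protein, Bhmt, which remethylates homocysteine, Krt18, the partner of Krt8, the tight junction gene Cldn4, the alcohol dehydrogenase Adh1, Ass1 of arginine synthesis, BC053393, the gluconeogenic enzyme Fbp2 and the dipeptidase Cndp2 were also among the 12 largest rises, with log2 changes from 9.75 for Ly6a to 8.37 for Cndp2. The ranges of Adh1 and BC053393 overlapped through blastocyst 11, which had 4.48 TPM of Adh1 against a median of 968 TPM. Bhmt was already at a mean of 1421 TPM at the 4-cell stage, whereas Adh1 was at 0.876 and 0.634 TPM at the 4-cell and morula stages.

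The promoters of these genes differ in sequence, and 4 of them are shown with that of Timm23, a mitochondrial import gene whose level hardly moved, because promoters of large falls held fewer CpG dinucleotides in the counts given near the end. Each is the RefSeq window in GRCm38.p6 from 250 bases before to 50 bases after the transcript start, written 5′ to 3′ on the strand of the gene, with CpG dinucleotides in capitals. The windows are chr9:78327780-78328079 (+) for Omt2b, chr9:51115751-51116050 (+) for Btg4, chr4:130308488-130308787 (+) for Fabp3, chr15:102004293-102004592 (-) for Krt8 and chr14:32201842-32202141 (-) for Timm23. The start used for Btg4 is an internal one, inside the annotated gene at chr9:51102147-51119924, whereas the other 4 windows lie at the annotated gene start.
Omt2b: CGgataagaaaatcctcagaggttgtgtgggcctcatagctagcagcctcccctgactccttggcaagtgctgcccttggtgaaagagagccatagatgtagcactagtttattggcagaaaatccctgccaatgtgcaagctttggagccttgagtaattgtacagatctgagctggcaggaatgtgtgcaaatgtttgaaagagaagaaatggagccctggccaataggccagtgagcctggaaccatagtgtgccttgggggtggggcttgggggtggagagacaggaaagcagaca
Btg4: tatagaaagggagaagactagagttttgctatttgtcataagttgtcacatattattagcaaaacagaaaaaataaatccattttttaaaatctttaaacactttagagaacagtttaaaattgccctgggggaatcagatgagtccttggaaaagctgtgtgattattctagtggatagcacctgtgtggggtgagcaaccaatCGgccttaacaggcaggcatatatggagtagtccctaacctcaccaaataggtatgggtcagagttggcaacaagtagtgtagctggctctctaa
Fabp3: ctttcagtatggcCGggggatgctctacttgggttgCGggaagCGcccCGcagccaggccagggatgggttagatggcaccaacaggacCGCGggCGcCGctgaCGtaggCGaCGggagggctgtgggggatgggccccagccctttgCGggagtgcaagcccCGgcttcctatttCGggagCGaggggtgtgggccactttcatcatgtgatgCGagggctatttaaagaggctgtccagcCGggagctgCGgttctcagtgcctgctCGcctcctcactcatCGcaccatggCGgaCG
Krt8: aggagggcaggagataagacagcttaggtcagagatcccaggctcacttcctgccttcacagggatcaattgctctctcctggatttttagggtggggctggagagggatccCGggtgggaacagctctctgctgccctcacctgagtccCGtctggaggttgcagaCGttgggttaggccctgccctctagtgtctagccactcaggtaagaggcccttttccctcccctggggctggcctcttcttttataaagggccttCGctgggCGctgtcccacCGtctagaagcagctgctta
Timm23: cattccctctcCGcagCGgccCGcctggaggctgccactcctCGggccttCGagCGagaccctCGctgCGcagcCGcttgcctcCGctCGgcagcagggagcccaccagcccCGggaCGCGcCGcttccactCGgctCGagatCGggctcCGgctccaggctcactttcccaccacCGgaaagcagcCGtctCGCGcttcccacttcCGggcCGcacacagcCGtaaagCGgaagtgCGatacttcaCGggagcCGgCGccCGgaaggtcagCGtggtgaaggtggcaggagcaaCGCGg
The windows of Omt2b and Btg4 hold 1 CpG each, that of Krt8 holds 6, that of Fabp3 22 and that of Timm23 35. The sequence TATAAA, searched on both strands, occurs in the Krt8 window and in none of the other 4.

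Oocyte transcripts as a group fell. Of 30 tested, 28 fell and 1 rose, and the median log2 change was -7.08. Their summed level went from 28918 to 85161 TPM in 2-cell embryos to 7368 to 16719 TPM in blastocysts, much of it from a pair of exceptions. Dppa3, which protects the maternal genome from demethylation, was at 1525 to 30119 TPM in 2-cell embryos and at 4292 to 11821 TPM in blastocysts, with a log2 fold change of -0.28 ± 0.16 (adjusted p = 0.0981). Khdc3, of the subcortical complex of the egg, rose by 6.11 ± 0.33 (adjusted p = 6.24e-38) from a mean of 38 TPM to 3106 TPM. The few genes named as exceptions of a list, here and below, were picked after their values were seen. Bmp15, a growth factor of the oocyte, fell from a median of 2009 TPM to 0, and Oosp1, an oocyte-secreted protein gene, from 3494 TPM to 0.

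Genes that store and destroy egg RNA fell too. Of 24 RNA-binding and decay regulators of oocytes 23 fell and 0 rose (21 and 0 with quantile normalization), with a median of -4.23. Dazl, a translational regulator of germ cells, had a median of 261 TPM in 2-cell embryos and 0 in blastocysts and fell by 8.64. Zar1, which holds maternal messages in oocytes, fell by 7.41. The m6A reader Ythdf2 did not pass the fold threshold, with means of 122 and 83.7 TPM and a log2 fold change of -0.85. The summed level of the list was 3593 to 22973 TPM in 2-cell embryos and 267 to 1432 TPM in blastocysts, with blastocyst ranges below those of every 2-cell embryo.

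The genes of the 2-cell burst went the same way. Of 27 tested, 26 fell and 1 rose, and the median was -7.66. Gm21312 lay at 1578 to 12483 TPM in 2-cell embryos and at 0 to 1.79 TPM in blastocysts. Tcstv1, a 2-cell gene of a small cluster, fell by 10.16 ± 0.36 from 328 to 1508 TPM to 0 to 2.59 TPM. Usp17lb, a member of a large deubiquitinase family, fell by 10.28 and was at 0 in all blastocysts. For these genes every 2-cell embryo lay above every blastocyst, also for blastocyst 10. Reads of the Zscan4, Tcstv, Tdpoz and Usp17l families are hard to assign to single copies. Eif1a, of translation initiation, was the member that rose, from a mean of 13.6 TPM to 203 TPM.

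**Figure D2:**
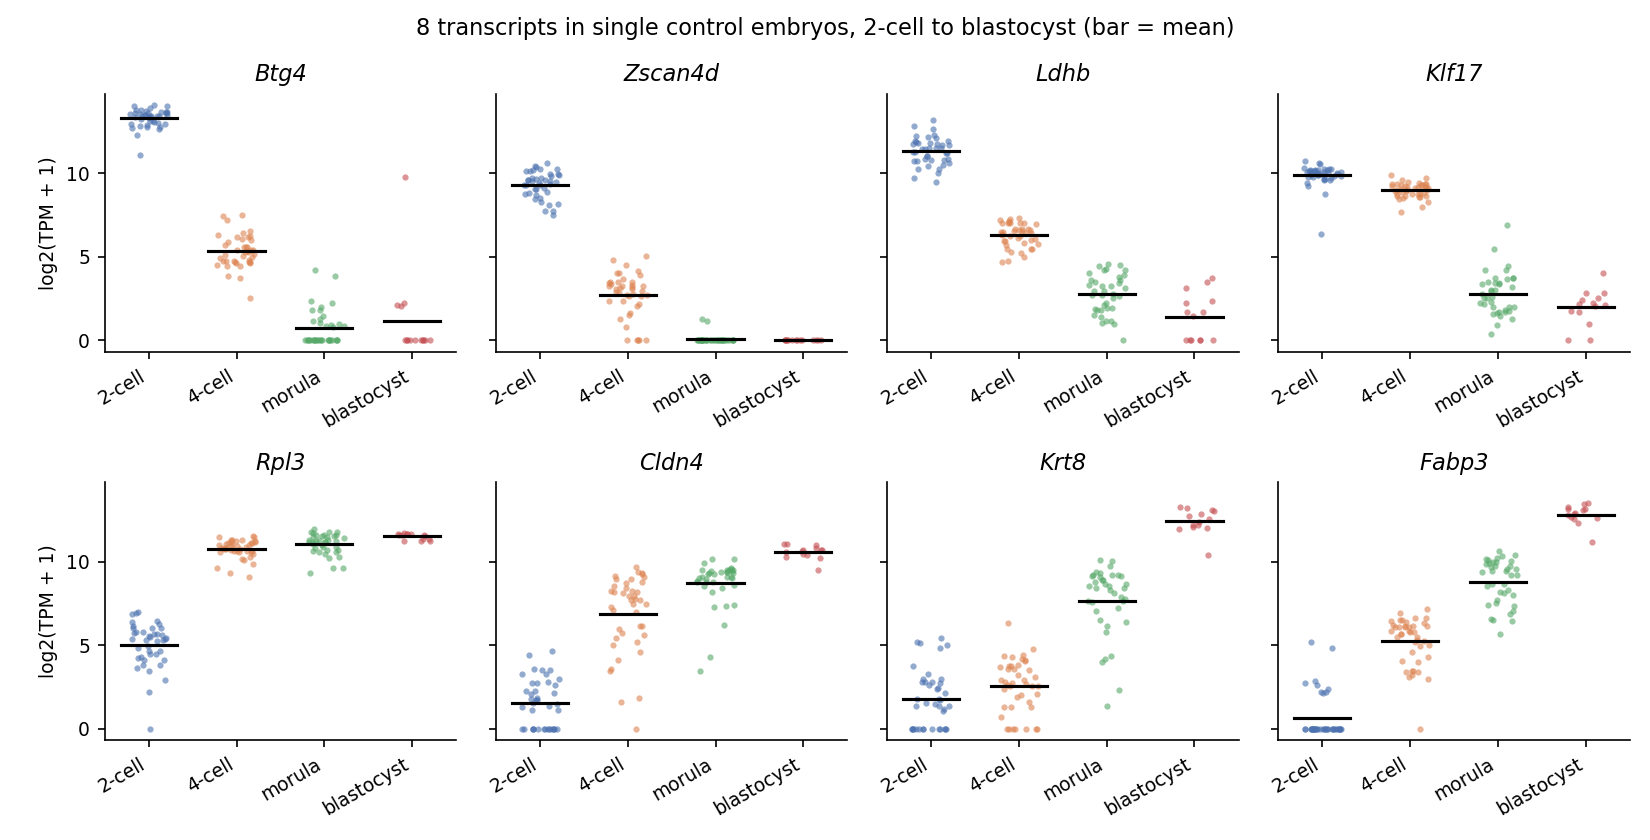
Level of 8 transcripts as log2(TPM + 1) in each control embryo at 4 stages, with 1 point per embryo (41, 42, 38 and 14) and a bar at the mean. Btg4, Zscan4d, Ldhb and Klf17 fell and Rpl3, Cldn4, Krt8 and Fabp3 rose; the single high Btg4 point among blastocysts, at 883 TPM, is blastocyst 10, and the lowest Krt8 point, at 1349 TPM, is blastocyst 11.

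Protein synthesis genes rose early. Of 80 cytosolic ribosomal protein genes 77 rose and 1 fell, and the list had a median log2 change of 3.76. Their summed level was 4791 to 33500 TPM in 2-cell embryos (median 9871) and 107477 to 157385 TPM in blastocysts (median 139080), and the summed means were 115600 TPM at the 4-cell stage and 168810 TPM in morulae. Rpl3, of the large subunit, lay at 0 to 129 TPM in 2-cell embryos (median 40.2) and at 2430 to 3391 TPM in blastocysts (median 3165), a rise of 6.31 ± 0.30 (adjusted p = 4.87e-43). Every blastocyst lay above every 2-cell embryo. Rpl14 rose by 6.12, Rps18 by 5.78 and Rps2, the member of highest level, by 3.24. The paralog Rpl3l fell by 2.65, and the paralogs Rpl10l and Rpl39l did not pass, with log2 changes of -0.61 and 0.53. Ribosomal protein genes have many processed copies, which can take or lend reads.

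Other steps of translation moved less evenly. Of 39 initiation factors 21 rose and 8 fell (23 and 5 with quantile normalization). The eIF3 subunits Eif3l and Eif3m rose by 4.53 and 4.47, and Eif5a, of high level at both stages, went from a median of 2195 TPM to 4870 TPM, a rise of 1.22 that quantile normalization took to 0.69, under the threshold. Of 26 nucleolar and ribosome assembly genes 12 rose and 0 fell (18 and 0 with quantile normalization), with a median of 0.71. Their summed mean was 3182 TPM at the 2-cell stage, 11176 TPM at the 4-cell stage, 11559 TPM in morulae and 5034 TPM in blastocysts. On plate 3 alone, where 2-cell embryos 19, 20 and 21 had high ribosomal protein levels, 1 of them rose and 9 fell. Wdr12, which acts in assembly of the large subunit, rose by 2.72 over all plates and by 0.47 on plate 3. Nop56, of small nucleolar RNA particles, and Nob1, of small subunit maturation, rose by 1.89 and 1.97 over all plates and had log2 changes of -0.35 and -0.555 on plate 3.

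The respiratory chain rose step by step. Of 75 nuclear-encoded respiratory chain subunits 70 rose and 0 fell, with a median of 3.51. The summed level was 4181 to 16746 TPM in 2-cell embryos and 37731 to 57919 TPM in blastocysts, and the means passed through 17385 TPM at the 4-cell stage and 33643 TPM in morulae. The complex III subunits Uqcrc1 and Cyc1 rose by 7.64 and 7.63, and the ATP synthase subunit Atp5d by 7.10. Cyc1 was at 0 to 57.1 TPM in 2-cell embryos and at 567 to 1648 TPM in blastocysts. The 5 members that did not pass were Ndufa2, Ndufb6, Ndufb11, Sdha and Cox8a, with log2 changes of 0.29 to 0.85. Of 77 mitochondrial ribosomal protein genes 52 rose and 1, Mrpl48, fell (65 and 1 with quantile normalization). Their summed means were 3589.7 TPM at the 2-cell stage, 9921 TPM in 4-cell embryos, 11292 TPM in morulae and 8061 TPM in blastocysts, and the level in 4-cell embryos was already above the final one. Mrpl36, Mrpl33 and Mrpl23 rose by 6.69, 6.24 and 5.96, and Mrps18b, of highest level, by 3.30.

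Glycolysis genes were exchanged in part. Of 18 genes 7 rose and 4 fell as deposited, and 11 rose and 2 fell after quantile normalization. Slc2a3, a glucose transporter of high affinity, lay at 0 to 56.4 TPM in 2-cell embryos and at 168 to 1283 TPM in blastocysts and rose by 6.11 ± 0.45 (adjusted p = 5.52e-26). Aldoa, the aldolase of glycolysis, rose by 3.71 from a median of 166 TPM to 2452 TPM. Ldhb, the heart form of lactate dehydrogenase, fell by 9.82 ± 0.36 (adjusted p = 1.52e-54), from 719 to 9325 TPM to 0 to 12.4 TPM. None of these had overlapping ranges. The other members called as lower were Pfkp, Ldha and the lactate transporter Slc16a1, with log2 changes of -2.19, -1.02 and -1.38. Quantile normalization kept the calls of Ldhb and Pfkp and gave -0.31 for Ldha and -0.55 for Slc16a1, and the plain means of Ldha were 52.5 TPM in 2-cell embryos and 54.04 TPM in blastocysts.

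Genes of protein turnover rose in near unison. Of 34 proteasome genes 32 rose and 1 fell, with a median of 2.92. The lid subunit Psmd13 lay at 0 to 54.3 TPM in 2-cell embryos and at 366 to 519 TPM in blastocysts and rose by 6.36 ± 0.38. Psmb5, a catalytic subunit, rose by 5.24, the ATPase Psmc4 by 4.87, and Psma7, of highest level, by 2.70. The member that fell was Psme3, a nuclear activator, by 3.60. Of 33 lysosome and endocytosis genes 23 rose and 2 fell. Hexa and Psap, both of sphingolipid breakdown, and the protease Ctsd rose by 7.68, 7.37 and 5.81, and the tetraspanin Cd63 reached 5315 to 10633 TPM in blastocysts. Ctsh and Cltb were the members that fell, by 3.16 and 4.37.

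Of 23 cytosolic chaperones 17 rose, 3 fell and 3, Hspb1, Stip1 and Ptges3, passed in neither direction. Hspa8, the constitutive Hsp70, went from 87.9 to 1559 TPM to 9763 to 15506 TPM, a rise of 4.80 ± 0.24, with a mean of 7885 TPM already at the 4-cell stage. Hsp90aa1 rose by 4.94 and had a mean of 895 TPM at the 4-cell stage and 6468 TPM in the morula. The 3 that fell were the stress-inducible Hspa1a, Hspa1b and Dnajb1, with log2 changes of -4.83, -5.31 and -2.09. Of 33 genes of the endoplasmic reticulum 15 rose, 16 passed in neither direction and 2, Sec61b and Srp14, fell (20 and 2 with quantile normalization). Ssr4, Ssr2 and Pdia6 rose by 4.37, 4.31 and 4.22, and Calr, the calcium-binding chaperone of highest level, by 2.13. Of 26 genes of glutathione, thioredoxin and peroxide defence 15 rose and 5 fell. Catalase, Cat, rose by 5.43, Gpx4 by 4.29 and Txn1 by 4.13, while Gpx3, Mgst3, Prdx2, Gclm and Nqo1 fell by 2.05 to 3.66. Prdx1, of highest level, had medians of 1568 TPM and 891 TPM and a log2 change of -0.53, within the fold threshold.

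Genes of an epithelium rose, some of them by the 4-cell stage. Of 17 trophectoderm regulators 13 rose and 1, Yap1, fell (15 and 1 with quantile normalization), with a median of 2.67. Cdx2 rose by 6.96 ± 0.48 (adjusted p = 2.88e-28), Gata3, another trophectoderm factor, by 6.79 from a median of 12.4 TPM to 855 TPM, and Id2, an inhibitor of helix-loop-helix factors, by 5.25. Elf3, an epithelial transcription factor, was the highest, at 363 to 1159 TPM in blastocysts against 1.04 to 265 TPM in 2-cell embryos. These ranges did not overlap for any of the 4. The summed level of the list was 115 to 873 TPM in 2-cell embryos and 1721 to 3969 TPM in blastocysts, and the summed means in between were 1134 TPM at the 4-cell stage and 962 TPM in morulae. The median member, however, went from 1.42 to 1.25 on the log2 scale between the 2-cell and 4-cell stages. The means of Gata3 and Elf3 fell there from 14.8 and 52.9 TPM to 2.23 and 5.50 TPM, and that of Cdx2 went from 0.625 to 3.31 TPM. The members that did not pass were Tfap2a, Tfap2c and Hand1. Hand1 had a mean of 1.34 TPM in 2-cell embryos, 377 TPM in 4-cell embryos and 3.88 TPM in blastocysts.

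Structural genes of epithelia rose with them. Of 10 keratin and desmosome genes 9 rose and 0 fell, with a median of 2.64, and Dsc2 did not pass. Their summed level was 3.66 to 258 TPM in 2-cell embryos and 3126 to 19345 TPM in blastocysts, the lowest being blastocyst 11. Krt18 rose by 9.39 and Perp, a desmosome component, by 5.96. Of 22 junction and polarity genes 11 rose and 3 fell (14 and 2 with quantile normalization). Cldn4 lay at 0 to 24.7 TPM in 2-cell embryos and at 744 to 2206 TPM in blastocysts and rose by 9.23 ± 0.59, Cldn7 rose by 8.28 and the adhesion molecule Epcam by 4.91. Cldn4 and Cldn7 had means of 246 and 181 TPM at the 4-cell stage. Pard3, a polarity protein, fell by 5.02 from 104 to 890 TPM to 3.07 to 32.2 TPM. The others that fell were Tjp1 and Prkci, by 2.01 and 2.55, and for Tjp1 quantile normalization gave -0.96, under the threshold.

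Transport genes of the cavity were mixed. Of 13 genes for sodium, proton and water transport 8 rose and 3 fell. The water channel Aqp3 rose by 4.48 ± 0.55, from 0 to 78.5 TPM to 233 to 683 TPM, Aqp8 by 3.78 and Fxyd4, a regulator of the sodium pump, by 4.4. Those that fell included Aqp11 and Slc9a3, with log2 changes of -3.08 and -2.93. Atp1b3, a sodium pump subunit, had medians of 80.5 TPM and 106 TPM and a mean of 623 TPM at the 4-cell stage, with a log2 change of -0.20 ± 0.20 (adjusted p = 0.342). Of 36 actin and actin-binding genes 24 rose and 3 fell, with a median of 2.36. Actb rose by 6.63 ± 0.38 from 0 to 296 TPM to 2755 to 20110 TPM, Actg1 by 6.43 and Tpm1, a tropomyosin, by 6.73. Vil1, the bundling protein villin, fell by 7.09 from 40.6 to 220 TPM to 0 to 0.60 TPM, and Rdx and Cotl1 fell by 2.56 and 1.92. Of 15 annexin and S100 genes 10 rose and 3 fell. S100a11, S100a10 and Anxa2, membrane and calcium-binding proteins, rose by 6.08, 5.27 and 4.63. Anxa7, the member of highest level at the 2-cell stage, fell by 3.49, as did S100a13 and S100a14, by 1.74 and 3.33. S100a13 had a median of 0 TPM at both stages and means of 1.62 and 0.41 TPM, so its fall is that of a gene near 0.

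Genes of the inner lineages rose in part. Of 17 pluripotency and inner cell mass genes 8 rose and 0 fell (10 and 0 with quantile normalization), with a median of 0.70. Dppa5a, an RNA-binding protein of pluripotent cells, rose by 5.93 ± 0.23 (adjusted p = 1.93e-51), from 53.9 to 1193 TPM to 8139 to 15754 TPM, with a mean of 5304 TPM at the 4-cell stage. Nanog rose by 5.51 and Zfp42, a pluripotency marker, by 5.02, and for these 3 genes the ranges did not overlap. Pou5f1, which is also stored in the egg, had medians of 726 TPM and 394 TPM in overlapping ranges. The lower blastocyst median did not appear in its plate-adjusted log2 change of -0.02 ± 0.26 (adjusted p = 0.936), so a change is left undecided. Of 14 primitive endoderm genes 6 rose and 2 fell. Lrp2, an endocytic receptor, rose by 5.07, Col4a1, a basement membrane collagen, by 3.58 and the adaptor Dab2 by 2.45. The transcription factor Gata4 fell by 3.99 and had a mean of 141 TPM at the 4-cell stage. Sox17, a factor of the same lineage, lay at 0 to 31.6 TPM in blastocysts (median 12.8) and was at 0 in 4 of the 14.

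**Figure D3:**
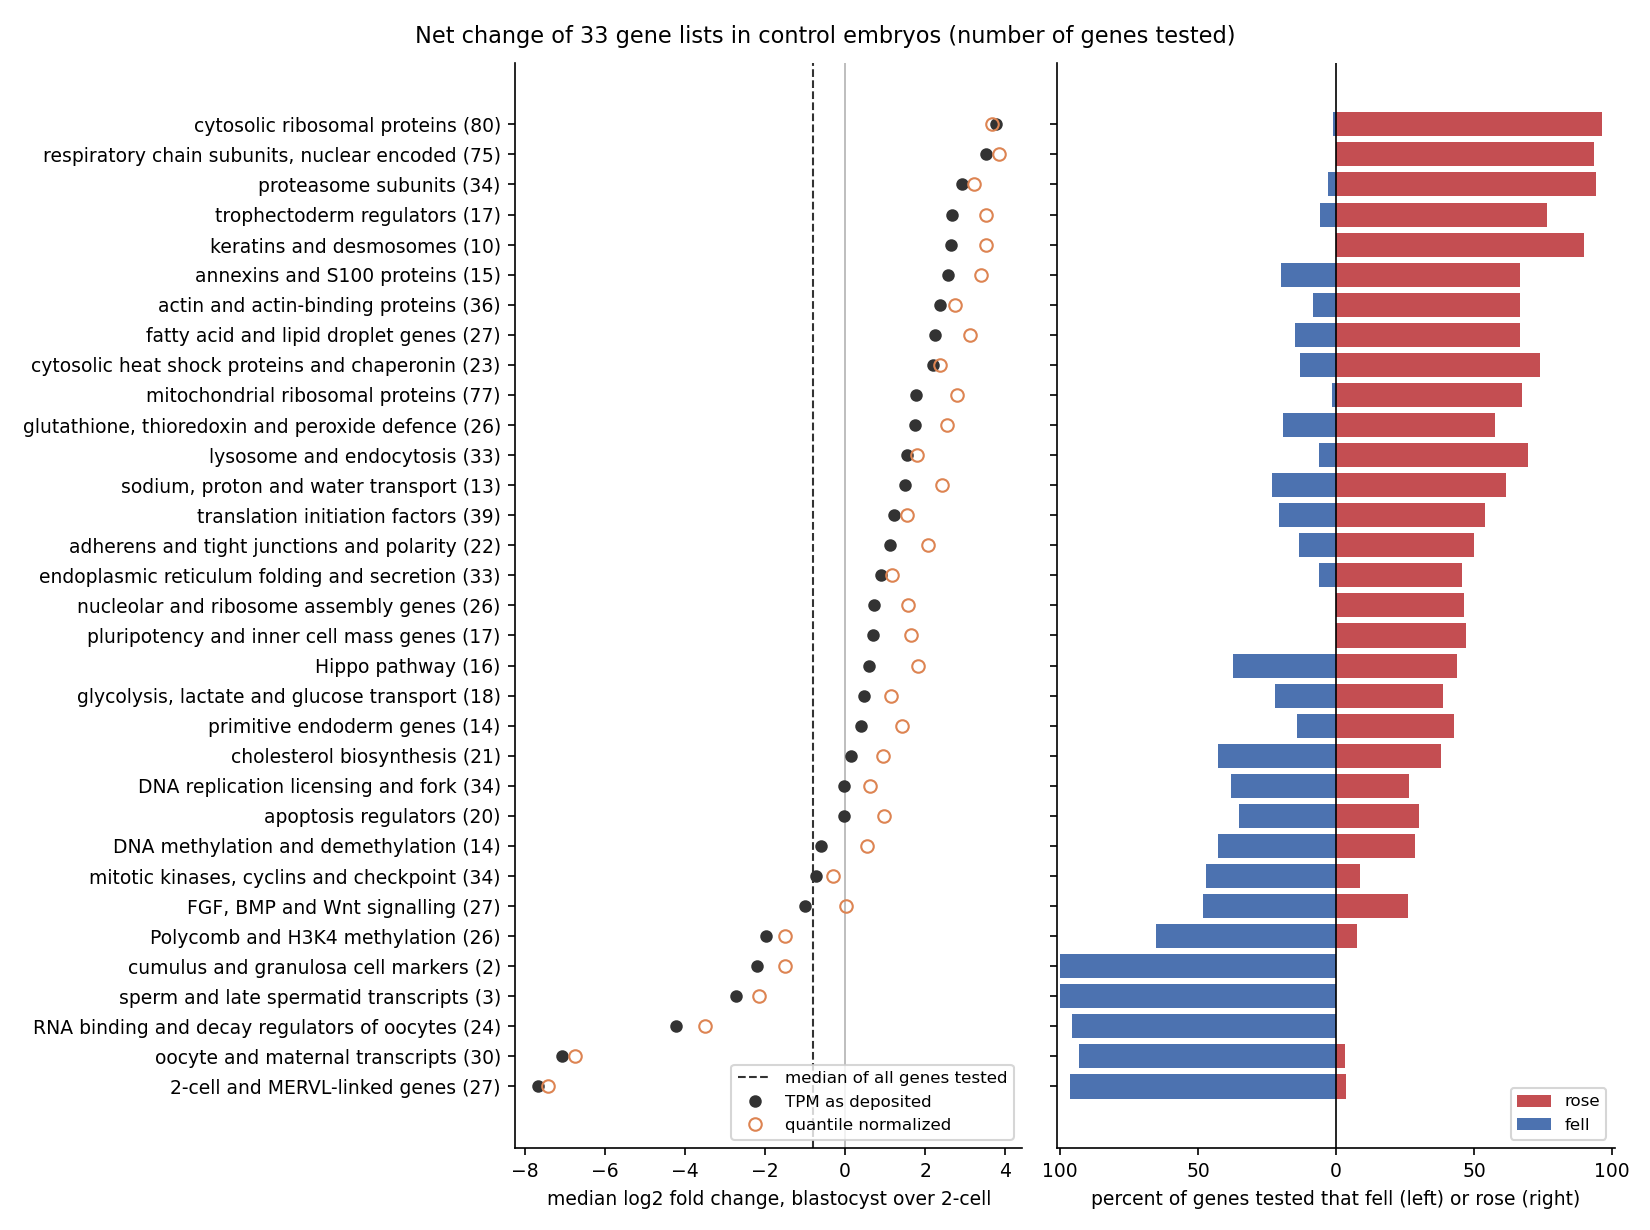
Net change of 33 gene lists, ordered by median, with the number of genes tested in brackets. Left, median log2 fold change as deposited (filled) and after quantile normalization (open), with the median of all genes, -0.80, dashed; right, percent of each list that fell (left, blue) or rose (right, red). Cytosolic ribosomal proteins are at the top with a median of 3.76 and 2-cell genes at the bottom with -7.66.

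Fat handling rose while sterol synthesis was divided. Of 27 fatty acid and lipid droplet genes 18 rose and 4 fell, with a median of 2.25, and their summed level went from 339 to 1745 TPM in 2-cell embryos to 6040 to 15204 TPM in blastocysts. Fabp3 led the list, and Apoc1, an apolipoprotein, rose by 6.48. Cd36, a fatty acid translocase, fell by 5.83 from 3.52 to 145 TPM to 0 to 5.10 TPM, and the acyl-CoA synthetases Acsl1, Acsl3 and Acsl4 fell by 2.07 to 2.46. Of 21 cholesterol synthesis genes 8 rose (38.1%) and 9 fell (42.9%, against 47.1% of all genes tested). With quantile normalization 10 rose and 6 fell. Pmvk and Ebp rose by 4.36 and 3.90 and Fdps, of highest mean at the morula stage, by 2.20, whereas Hmgcs1, at the entry of the pathway, fell by 3.89 from a median of 406 TPM to 37.2 TPM.

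Of 34 mitotic genes 16 (47.1%, the share of all genes tested) fell and 3, Cdc20, Bub1b and Top2a, rose (13 and 6 with quantile normalization). Wee2, the oocyte kinase that holds Cdk1 inactive, fell by 10.46 ± 0.35 (adjusted p = 2.73e-58), from 175 to 2713 TPM to 0 to 75.3 TPM, the highest being blastocyst 10. Fbxo43, the inhibitor that keeps eggs in meiotic arrest, fell by 6.02, the checkpoint kinase Ttk by 4.53 and the securin Pttg1 by 2.34. Of 34 replication genes 13 fell (38.2%) and 9 rose (26.5%, against 25.9% of all genes tested) as deposited, with a median of -0.02. After quantile normalization 7 fell and 12 rose, with a median of 0.61. The clamp loader Rfc4, the polymerase Pold1 and the helicase factor Gins1 rose by 4.10, 2.93 and 2.81, and Gmnn, which blocks relicensing, fell by 1.41.

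Of 26 Polycomb and H3K4 methylation genes 17 fell and 2, Jarid2 and Ash2l, rose (13 and 3 with quantile normalization), with a median of -1.97. Bmi1, of Polycomb complex 1, fell by 6.66 ± 0.29, from 92.8 to 3180 TPM to 0 to 48.7 TPM. Ezh2, the methyltransferase of Polycomb complex 2, fell by 4.10 from 215 to 1056 TPM to 19.9 to 39.3 TPM, and the demethylase Kdm1b, which acts in oocytes, by 3.86. Rbbp7, the histone-binding member of highest level, had medians of 1069 and 1539.8 TPM and a log2 change of 0.33 ± 0.26 (adjusted p = 0.245). Genes of DNA methylation moved in both directions, close to the background. Of 14 tested, 6 (42.9%) fell and 4, Dnmt3b, Tet1, Tet2 and Tdg, rose (28.6%; 5 and 6 with quantile normalization, which also turned the median from -0.61 to 0.55). Tdg, the glycosylase that removes oxidized methylcytosine, rose by 5.76 ± 0.27, from 0 to 4.53 TPM to 26.7 to 98.9 TPM. Zfp57, which protects imprints, fell by 5.44 from a median of 1156 TPM to 19.5 TPM.

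Signalling and death genes showed no common direction. Of 27 genes of FGF, BMP and Wnt signalling 13 fell (48.1%) and 7 rose (25.9%), close to the 47.1% and 25.9% of all genes tested. With quantile normalization 13 fell and 11 rose, and the median turned from -0.99 to 0.03. The falls were led by the egg factors Bmp15 and Gdf9, by 10.17 and 9.19, and by Spry4, an inhibitor of FGF signalling, by 7.75. Of 16 Hippo pathway genes 7 rose and 6 fell, and on plate 3 alone 5 rose and 6 fell. The target Cyr61 and the scaffold Amotl2 rose by 5.33 and 4.97 and the factor Tead4 by 4.78, whereas Yap1, its coactivator, fell by 4.79 ± 0.23 from 77.8 to 355 TPM to 1.02 to 9.52 TPM. Of 20 apoptosis regulators 6 rose (30%) and 7 fell (35%). With quantile normalization 10 rose and 5 fell, and the median went from -0.03 to 0.98. Bcl2l10 was the highest of them in 2-cell embryos, at 1003 to 8528 TPM. The proapoptotic Bik fell by 4.47 to 0 TPM in all blastocysts, and Bok, another proapoptotic gene, rose by 4.36.

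Of 12 sperm and 16 cumulus and granulosa genes looked for, 3 and 2 were in the deposited table. Its filters are not given, so the missing genes say nothing about levels in the embryos. All 3 sperm transcripts tested, Prm2, Odf2 and Ldhc, fell, and Odf2, which is also a centrosome gene, was still at 31.3 to 63.1 TPM in blastocysts. Both cumulus and granulosa genes tested, Amhr2 and Cyp19a1, fell. Amhr2 had a mean of 20.3 TPM in 2-cell embryos and 184 TPM at the 4-cell stage. In the low protein embryos the log2 change of Amhr2 was -0.34, against -1.79 in control embryos.

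In 12 pairs of an egg or early form and its later or widely used relative, the early gene fell far more often than the later one rose. The early gene fell in 11 pairs, with log2 changes from -3.45 (Cdc25b) to -10.46 (Wee2) and with Slc2a1 the exception, and the later gene rose in 4. Klf17 fell by 8.37 while Klf5, a related factor of the trophectoderm, rose by 3.13. Klf5 made up a median of 1.47% of the TPM of this pair in 2-cell embryos, 31.2% at the 4-cell stage, 96.8% in morulae and 98.5% in blastocysts. The dioxygenase Tet3 fell by 6.02, and Tet1 rose by 1.06 to a median of 4.69 TPM. The glucose transporter Slc2a3 rose against Slc2a1, from a median of 8.53% of the pair to 90.8%. The poly(A)-binding protein gene Pabpc1l fell by 6.84 and Pabpc1 rose by 1.44. On plate 3 alone, with 2-cell embryos 19, 20 and 21, Pabpc1 had a log2 change of -0.64.

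In the other pairs the later gene was not called as rising. The chaperone Npm2 of the egg fell by 9.32, while Npm1 had a log2 change of 0.51 ± 0.14, inside the stable bounds. The importin Kpna7 fell by 8.79, and Kpna2 fell by 1.04. The cap-binding Eif4e1b fell by 7.03, and Eif4e fell by 3.19, from 358 to 1755 TPM to 99.4 to 159 TPM, and yet went from a median of 83.4% of the pair to 100%. Wee1, Cdc25a, Ybx1 and the histone gene Hist1h1c did not pass, with log2 changes of -0.20, 0.10, -0.68 and 0.81, while Wee2, Cdc25b, Ybx2 and H1foo fell. Quantile normalization carried Cdc25a and Hist1h1c past the threshold, at 1.39 and 1.11. For lactate dehydrogenase, Ldha had medians of 42.2 and 37.9 TPM and a fall of 1.02 ± 0.48 (adjusted p = 0.044) that was lost or turned under several other settings, and its median share of the pair went from 1.71% to 96.7%.

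**Figure D4:**
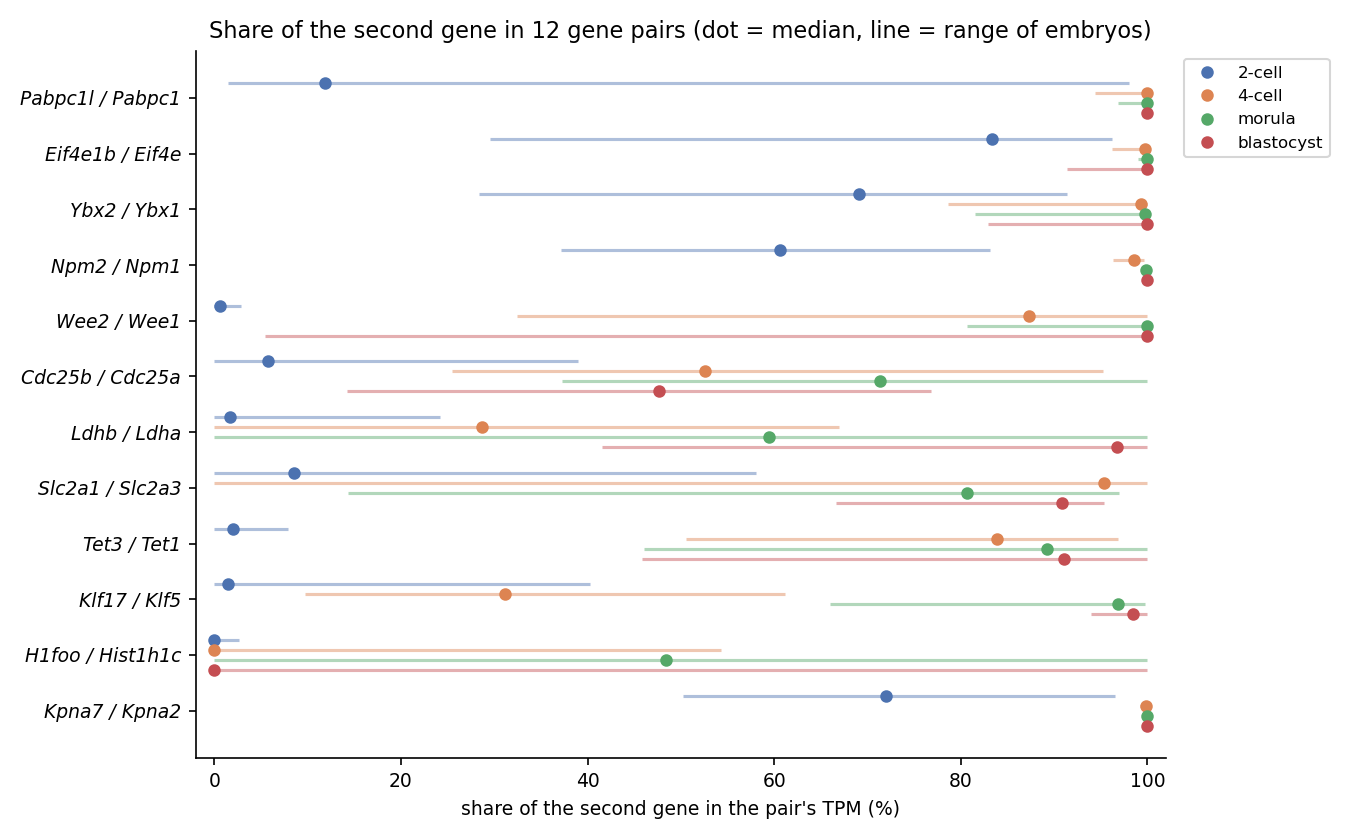
Share of the second gene in the summed TPM of 12 gene pairs at 4 stages of control embryos, with a dot at the median and a line over the range of embryos with either gene above 0. The second gene had a blastocyst median over 90% in 10 pairs; for Cdc25b and Cdc25a it was 47.7%, and for H1foo and Hist1h1c it was 0%.

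A minority of genes ended where they began. For 983 genes (8.89%) the 95% confidence interval of the net log2 change lay within -1 and 1. This count depended on the fit, with 433 genes at a pseudocount of 0.1, 645 with sire as a correlated group, 57 on sire means and 49 without the main sire. The stable genes of highest level were Dppa3, the splicing gene Snrpe, Tpt1, a tumour protein tied to translation, Npm1 and Timm23. The log2 change of Dppa3 differed between subsets, at 0.52 on plate 2 alone, -0.93 on plate 3 alone and -0.57 with only the main sire. Snrpe lay at 479 to 7453 TPM in 2-cell embryos (median 1544) and at 987 to 1875 TPM in blastocysts (median 1269.8), a log2 change of -0.15 ± 0.18. A further 2008 genes were not called and had intervals reaching past these bounds, so that for them neither a change nor its absence was shown.

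Some of the stable genes had left their level and come back. Of the 983, 224 had a 4-cell or morula mean at least 2 log2 units above the 2-cell mean, and 26 at least 2 below. Fam65c, Fkbp10, Fez1, Klf2 and Gcm1 departed most upward. The means of Fam65c, Fkbp10, Fez1 and Gcm1 were under 1 TPM at both ends, where log2(TPM + 1) keeps any net change small. Gcm1, a transcription factor known from the placenta, lay at 0 to 14.2 TPM in 2-cell embryos (median 0), had a mean of 75.1 TPM at the 4-cell stage and 0.252 TPM in morulae, and lay at 0 to 1.38 TPM in blastocysts. Klf2, a pluripotency factor, had a mean of 71.5 TPM at the 4-cell stage and blastocyst levels of 0 to 2.58 TPM, and quantile normalization called it as higher in blastocysts, with a log2 change of 1.14. Slc2a1, Wdr1, Reep5 and Ggta1 were among those that departed most downward. Slc2a1, the basal glucose transporter, had medians of 65.9 TPM and 76.5 TPM at the ends and means of 2.15 TPM at the 4-cell stage and 35.4 TPM in morulae.

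Other genes overshot. Among those that rose with their highest mean at the 4-cell stage, the widest ranges were those of Tead4, Nt5c3b, a nucleotidase, and Tsr2, of ribosome assembly. Tead4, the factor that opens the trophectoderm program, had a median of 0 in 2-cell embryos, means of 261 TPM at the 4-cell stage and 72.9 TPM in morulae, and a blastocyst median of 62.1 TPM. Isyna1, which makes inositol, Vnn1, a pantetheinase, and Smpdl3a, a phosphodiesterase, had their highest means in the morula, and Isyna1 reached 3678 TPM there against a blastocyst median of 968 TPM. Among genes that fell, 2989 (57.4%) had their lowest mean in the blastocyst, 1574 (30.3%) in the morula, 635 (12.2%) in 4-cell embryos and 5 at the 2-cell stage. Gm8994, Gm6902 and the galactosyltransferase B4galt4 were lowest at the 4-cell stage. Of the 5, the widest ranges were those of Btg1, Kcnk5 and Wdyhv1, with the fall largest for Wdyhv1, at -1.14, and log2 changes of 0.015, 0.61 and 0.13 in the fit without the plate covariate.

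Promoters of the genes that fell most were poor in CpG. A 300-base RefSeq window could be matched for 8897 of 10794 tested genes outside chromosome 18 (82.4%), and their median CpG count was 20. The median was 20 for genes that rose, 21 for genes that fell and 22 for stable genes. It was 9 for the 538 windows of genes that fell by 5 or more on the log2 scale, of which 50.6% held fewer than 10 CpG, and 16 for the 171 windows of genes that rose by 5 or more, of which 26.9% did. Among all tested genes 19.1% held fewer than 10. The GC box sequence GGGCGG, searched on both strands and itself holding a CpG, was found in 41.3% of windows of the large falls, 52% of the large rises and 62.8% of all tested genes. The sequence TATAAA, on both strands, was found in 11%, 8.19% and 7.5%. Over all 27025 RefSeq windows the median was 7 CpG, GGGCGG was in 35.9% and TATAAA in 14.2%. These are counts of letters in reference windows, which may not be the start used in embryos.

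**Figure D5:**
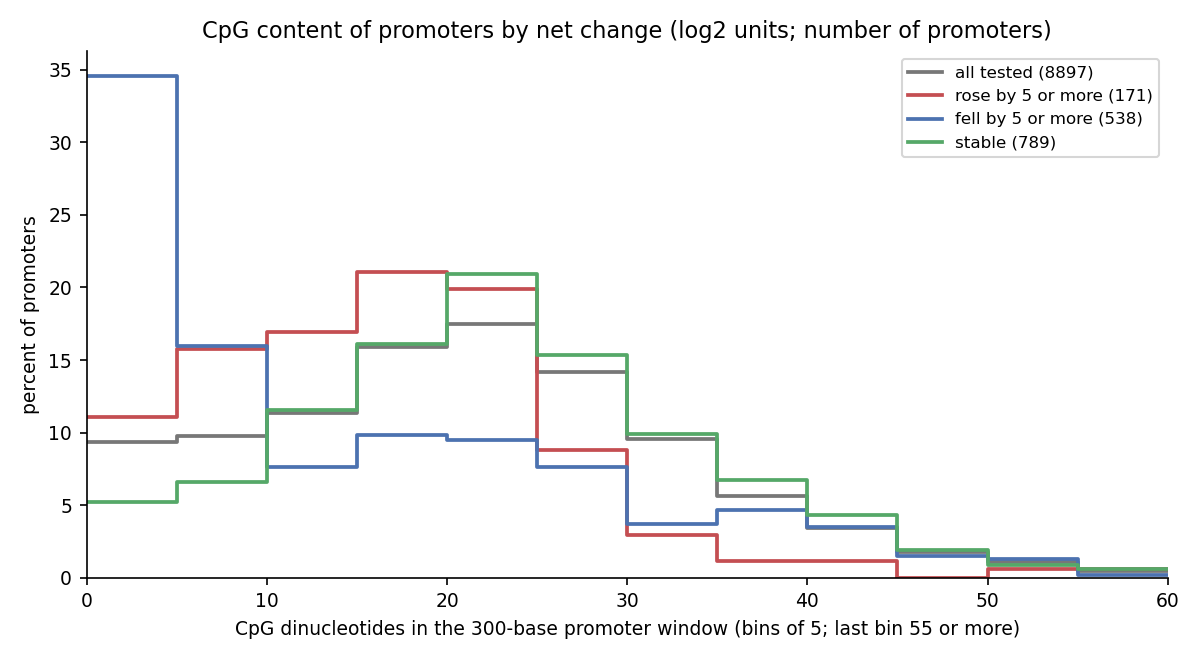
Distribution of CpG counts in 300-base RefSeq promoter windows, in bins of 5, as percent of the windows of each set: all genes tested (8897), genes that rose by 5 or more log2 units (171), genes that fell by 5 or more (538) and stable genes (789). The large falls peak in the lowest bin, and their median is 9 against 20 for all genes tested.

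By chromosome the median log2 change ran from -1.21 on chromosome 5 to -0.397 on chromosome 11, with -1.01 on the X chromosome (415 genes).

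Directions held within plates and within the main sire for nearly all called genes, but these embryos also served to call the genes. All 14 blastocysts lay on plates 2 and 3, and 11 of them came from the main sire. The agreement is therefore not independent support. On plate 2 alone, with 11 blastocysts and 5 2-cell embryos, 2846 of 2860 genes that rose and 5200 of 5203 that fell had the same sign. On plate 3, with 3 embryos of each stage, the numbers were 2687 of 2859 and 5106 of 5190, and 21 and 4 genes were called in the opposite direction. Among embryos of the sire with 11 blastocysts and 13 2-cell embryos, which lay on different plates, 2859 of 2860 and 5156 of 5198 had the same sign. The 2-cell and blastocyst embryos of a plate differ in sire and those of a sire differ in plate, so neither comparison is free of both.

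Embryos of low protein sires gave the same picture. Their 39 2-cell embryos and 22 blastocysts share plates and egg donors with the control embryos, but no embryo. Some of these blastocysts lay on plate 6, where no control blastocyst lay, and the low protein values below include them. In them 2826 genes rose (25.5%) and 5236 fell (47.3%). Of the control genes also tested there, 2857 of 2859 that rose and 5198 of 5203 that fell had the same sign, and the net changes of the 2 sets had a Pearson correlation of 0.985 across 11050 genes, which are not independent. Fabp3 rose by 11.14 in low protein embryos and by 12.28 in control embryos, Krt8 by 9.42 and 10.59, and Btg4 fell by 12.87 and 12.2. The difference between the 2 net changes was tested as an interaction of diet and stage, and it passed an adjusted p of 0.05 (limma) for 0 of 11015 genes, with 427 genes (3.88%) at an unadjusted p under 0.05 and a smallest adjusted p of 0.865. Under 4 other settings 0 genes passed, with smallest adjusted p-values of 0.202 to 0.655. These include the fit without plate 6, at 0.331. The 95% interval of a gene's difference, not adjusted for the number of genes, had a median half-width of 0.691 log2 units. The adjusted p asks for more than this, so differences of this size and somewhat above it could also have been missed.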

How the data were processed

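Single control embryos at the 2-cell, 4-cell, morula and blastocyst stages were compared, with low protein embryos as a second set. The authors deposited 1 table of TPM values for 280 embryos and 11076 genes, made per the labels from embryos lysed in TCL buffer and libraries of a Nextera kit. Bowtie and mm10 are named in the submitters' processing notes, and versions, counting and filters are not given in the sources used here. TPM sums were 985115 to 998407 per embryo, the lowest gene maximum was 5.87 TPM, and 15 symbols had been turned into dates. Stage or diet went against the label in 0 embryos, and no 2 embryos had identical values. The table keeps no counts, so depth and its precision are unknown.

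Here, log2(TPM + 1) was fitted with limma 3.58.1 (R 4.3.3, trend and robust) over the 4 control stages with plate as covariate. Plates were read from the sample titles, and sires and egg donors from the table. Genes reaching 1 TPM in at least 25% of the embryos of any 1 stage were kept. Calls needed a Benjamini-Hochberg adjusted p under 0.05 and a log2 fold change of 1 or more in size. The low protein embryos had the same fit, and the diet difference was an interaction over 2-cell embryos and blastocysts of both diets. Python 3.11.15, numpy 2.4.6, pandas 2.3.3 and matplotlib 3.10.9 made the summaries and plots. In a test on simulated data with 10454 genes, 14 control 2-cell embryos were relabelled at random as blastocysts and compared with the rest. True log2 changes of 0.5, 1 and 2 passed the adjusted p with the right sign in 4.48%, 34.3% and 89.4% of cases. The fold threshold was not applied, and 2 genes without a true change passed. The real blastocysts came from 2 sires on 2 plates, which this test does not copy.

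Genes are named as the 12 largest rises and falls with a mean of 50 TPM or more, the 3 largest changes (mean of 10 TPM or more) and the highest member of each of 33 lists, 12 pairs, the 5 highest stable genes, the 5 largest departures in each direction and the 3 widest ranges of each path. The members, lists and pairs were chosen with earlier results of these data known, and they are described by counts with no set test. Of the genes tested, 11000 of 11054 matched RefSeq by symbol. Alternatives covered the pseudocount, filter, normalization, plate, sire, threshold and each blastocyst left out, and the closing section gives their effect. A few genes that this rule or a list would name are not reported here.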

Additional observations from a re-analysis of the deposited data

How the results depend on the processing

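The numbers of genes that rose and fell stayed within 1.5 times of 2860 and 5203 under every alternative tried but 1, a log2 threshold of 2, at which 1715 rose. Each blastocyst left out in turn gave 2837 to 2887 rises, 5178 to 5238 falls, 911 to 960 stable and 224 to 246 returning genes. Stable and returning genes, which rest on narrow intervals, were fewer than the 983 and 250 reported under several settings. They numbered 433 and 74 with a pseudocount of 0.1, 616 and 137 with 2-cell and blastocyst embryos only, 365 and 123 on plate 3 alone, 645 and 154 with sire as a correlated group, 57 and 13 on sire means, 49 and 4 without the main sire, and 105 and 11 without plate 2, and returning genes numbered 159 without plate 3. Other settings gave more of both, with 1255 and 270 with only the main sire, 1047 and 272 on plates 2 and 3, and 1365 and 322 with array weights. The cause of these differences was not tested.

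Of the values of 186 named genes under 39 alternatives, 7120 kept their direction and side of the threshold, 93 lost the call, 16 gained one and 21 changed sign, and the cause of the last was not tested. Btg1 turned to 0.159 with quantile normalization, 0.015 with no plate covariate, 0.317 without the second sire and the plate covariate and 0.275 with only the main sire. Kcnk5 turned to 0.61 with no plate covariate, 0.101 on plate 3, 0.711 on sire means, 0.889 without the second sire and 0.178 with only the main sire. Ldha turned to 0.106 with no plate covariate, 0.021 on plate 3, 0.7 on sire means, 0.933 without the main sire and 0.943 without plate 2. Wdyhv1 turned to 0.13, 0.235, 0.208 and 0.271 with no plate covariate, on sire means, with only the main sire and without plate 2. On plate 3 alone Nob1, Nop56 and Pabpc1 turned to -0.555, -0.349 and -0.642. The share of rises among calls was 40.9% with no plate covariate, against 35.5%. The alternatives with only the main sire, without the second sire, without suffixed sire identifiers and without both blastocysts that stand apart were chosen after seeing the data.

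Single embryos could not be paired between stages, because the labels give them no replicate numbers shared between stages. Embryos of 2 sires were present at both end stages, and the settings by sire above use them. Depth limits cannot be given for TPM, and the 14 blastocysts of 2 sires and 4 egg donors limit how far the net change speaks for other litters.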
